A study of Arabidopsis thaliana and Arabidopsis thaliana x Arabidopsis arenosa with 9 samples.

Results

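The genes described here are nuclear loci that encode parts of the photosynthetic apparatus of Arabidopsis thaliana, read in whole seeds of 2 reciprocal crosses. They were chosen by locus from a fixed list that names light-harvesting proteins, photosystem subunits, plastocyanin, the Rieske protein, Rubisco small subunits, Rubisco activase and plastid glyceraldehyde-3-phosphate dehydrogenase. All 48 loci of the list were found among the 33602 loci of the count table, and all 48 were among the 16779 loci with enough reads to be tested. Seeds were dissected 3 days after pollination from crosses between the accessions Col-0 and C24, the seed parent written first. Col-0 X C24 (2 libraries) was set against C24 X Col-0 (2 libraries), so both groups hold seeds with the same hybrid embryo genotype but with the parents exchanged. In both crosses the seed parents were male-sterile plants hemizygous for a sterility construct (ColA9 and C24A9), and each replicate pooled the seeds of many siliques. Seeds hold maternal seed coat as well as embryo and endosperm, so in such bulk samples fewer cells of a type and less RNA per cell cannot be told apart. In both crosses, per the study's methods, the library of replicate 2 was treated with duplex-specific nuclease, which degrades the cDNA of abundant transcripts, and the library of replicate 1 was not. The replicate number and that treatment cannot be told apart.

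In the chloroplast, light is caught by chlorophyll-binding antenna proteins, the LHCB proteins around photosystem II and the LHCA proteins around photosystem I. Photosystem II splits water and passes electrons through plastoquinone, the cytochrome complex with its Rieske protein and the copper protein plastocyanin to photosystem I, which reduces ferredoxin. Rubisco, held active by Rubisco activase, and plastid glyceraldehyde-3-phosphate dehydrogenase use the products to fix and reduce carbon. The listed genes, for parts of this apparatus, lie in the nucleus. Such genes are strongly expressed in green tissue and rise in light, and young Arabidopsis seeds are green tissue as well.

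Promoters were compared because these genes are known to share light-responsive elements. The window was the 250 bases before the annotated start of each gene in TAIR10.1, and it was searched on both strands. The G-box core CACGTG was present in 18.75% of the 48 promoters and in 6.58% of 26711 promoters of the annotation. The I-box core GATAAG was present in 29.17% of them, against 12.24% of all promoters. CCAATC, which contains the CCAAT letters, was present in 27.08%, against 10.15% of all promoters. The letters TATAAA were present in 41.67%, against 47.75%, and AAAAATCT in 10.42%, against 6.74%. None of the 5 motifs is contained in another. CCAATC was found in 9 of the 16 antenna promoters and in 4 of the other 32. The promoters shown are those of the most abundant photosystem II antenna gene LHCB1.3 (chr1:10477635-10477884, plus strand), of the minor antenna gene LHCB4.1 (chr5:208616-208865, plus strand) and of the photosystem I antenna gene LHCA4 (chr3:17495034-17495283, minus strand). Capitals mark the G-box core, the I-box core or CCAATC on either strand, and a match is a description of letters only.
LHCB1.3: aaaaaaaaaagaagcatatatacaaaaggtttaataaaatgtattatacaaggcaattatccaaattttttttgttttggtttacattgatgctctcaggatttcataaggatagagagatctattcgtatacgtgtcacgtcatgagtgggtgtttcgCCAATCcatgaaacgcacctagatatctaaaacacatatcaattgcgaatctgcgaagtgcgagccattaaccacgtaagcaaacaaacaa
LHCB4.1: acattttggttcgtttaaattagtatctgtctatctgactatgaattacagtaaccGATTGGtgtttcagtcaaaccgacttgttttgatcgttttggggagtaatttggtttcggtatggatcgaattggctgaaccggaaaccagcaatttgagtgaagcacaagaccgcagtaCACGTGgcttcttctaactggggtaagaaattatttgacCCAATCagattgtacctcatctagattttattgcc
LHCA4: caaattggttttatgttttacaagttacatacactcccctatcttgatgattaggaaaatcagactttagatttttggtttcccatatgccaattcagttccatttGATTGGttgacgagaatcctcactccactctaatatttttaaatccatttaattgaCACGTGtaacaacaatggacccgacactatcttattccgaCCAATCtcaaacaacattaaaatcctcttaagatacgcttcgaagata
LHCB4.1 and LHCA4 carry a G-box core and CCAATC in both orientations, while in this window LHCB1.3 has 1 CCAATC and no G-box core.

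Library totals ranged from 3538335 to 6498145 reads. Levels are given in RPM, reads of a gene per 1000000 reads of the library. Loci of the chloroplast genome took 67.9 RPM (replicate 1) and 1874 RPM (replicate 2) in Col-0 X C24, against 56.2 and 6299 RPM in C24 X Col-0. Replicate 2 of C24 X Col-0 also had reads on loci that are silent in the other libraries. A further 2 columns of the table, marked N, belong to replicate 1 of each cross (3876803 reads in Col-0 X C24, 3395442 reads in C24 X Col-0). What N stands for is not given in the sources used here, so these columns were set beside the 4 libraries and were not counted as replicates.

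The 48 genes together took 3558 and 2275 RPM in the libraries of Col-0 X C24 (replicates 1 and 2), against 5852 and 6326 in C24 X Col-0. Both libraries of Col-0 X C24 lay below both of C24 X Col-0. The mean was 2916 ± 907 RPM in Col-0 X C24, against 6089 ± 336 in C24 X Col-0 (SD, n = 2 each), a ratio of 0.479. The exact permutation test gave a two-sided p of 0.333, which is the smallest that 2 against 2 libraries allow. In the columns marked N the sums were 2978 RPM for Col-0 X C24 and 4137 for C24 X Col-0, a ratio of 0.720. As a share of all reads the 48 genes held 0.356% and 0.227% in Col-0 X C24, against 0.585% and 0.633% in C24 X Col-0.

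Levels among the genes were compared per kilobase of the longest transcript, as the mean of the 4 libraries after TMM scaling. RBCS1A, a Rubisco small subunit, was highest at 509 RPM per kilobase. LHCB1.3 followed at 282, then the small photosystem II subunit PSBX at 186 and PSBR, a subunit on the lumen side of photosystem II, at 167. The median of the 48 genes was 74.1 RPM per kilobase. The lowest were LHCB1.4 at 3.42 and PSBP2 at 2.46, both paralogs of far more abundant genes.

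**Figure D1:**
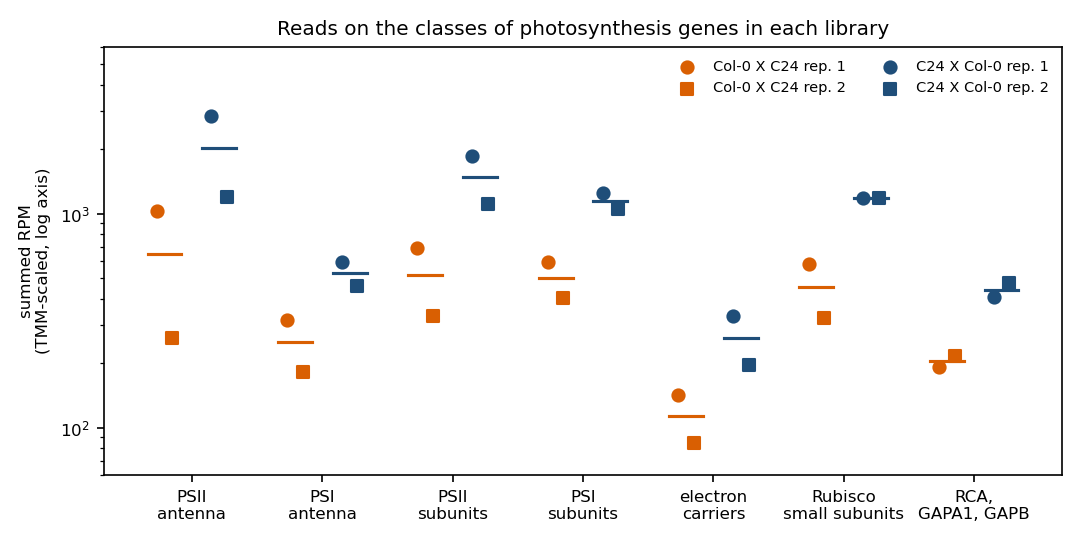
Summed reads of each class of photosynthesis genes (horizontal axis) in RPM after TMM scaling (vertical log axis), with circles for replicate 1, squares for replicate 2 and lines for the mean of the 2 libraries. In every class both libraries of Col-0 X C24 lie below both libraries of C24 X Col-0, and in the photosystem II antenna they are at 1028 and 262, against 2864 and 1199.

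Between the crosses, all 48 genes had a lower fitted level in Col-0 X C24, against 51% of all loci tested. The log2 fold change is that of Col-0 X C24 relative to C24 X Col-0, and its median was -1.41 for the 48 genes, against -0.01 for all loci. In edgeR's quasi-likelihood test without a term for the replicate number, 0 of the 48 genes and 0% of the 16779 loci passed an adjusted p of 0.05 in either direction. The adjusted p of the 48 genes ran from 0.455 to 0.942. At an unadjusted p under 0.05 there were 19 of the 48, all lower in Col-0 X C24, where 4.38% of all loci were lower at that p, and DESeq2 without the block called 3 of the 48 lower and 0 higher, against 1.11% and 0.691% of all loci. Since the nuclease treatment pairs the libraries by replicate number, the same test was run with the replicate number as a block. With the block, 31 of 48 genes passed as lower in Col-0 X C24 and 0 as higher, against 4.42% of all loci lower and 2.24% higher. The median of the 48 was then -1.56 on the log2 scale, against 0.01 over all loci, and DESeq2 with the block called 31 lower and 0 higher, against 3.63% and 1.25% of all loci.

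The difference was seen separately within each replicate number. Within replicate 1, 48 of 48 genes were lower in Col-0 X C24, and the median log2 difference was -1.15. Within replicate 2, 48 of 48 were lower, with a median of -2.0. In the columns marked N, taken relative to the median of all loci, 45 of 48 were lower, with a median of -0.66. The exceptions were LHCB1.4, LHCB2.1 and LHCB4.2, at log2 differences of 1.06, 0.83 and 0.0041. Lower in all 3 pairs were 45 of 48 genes, against 25.7% of all loci. The libraries of Col-0 X C24 lay below those of C24 X Col-0 without overlap for 40 of 48 genes, against 17.2% of all loci, and above them for 0 of 48, against 19.6%. These directions are relative to the other loci. On library totals alone, 41 of 48 were lower in replicate 1, where the median log2 difference of all loci was 0.54, and LHCB1.4, LHCB4.2, LHCA4, PSBQ2, PSAD1, PSAD2 and GAPA1 were not lower.

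Counts of calls varied with the treatment of base composition and with the libraries. With the block and a correction for transcript GC content, 17 of 48 passed as lower and 0 as higher, against 3.68% and 1.9% of all loci, and the median was -1.07. Of the 31 genes called with the block alone, 16 passed with this correction and 15 did not, and PSAH2 passed only with it. With the columns marked N in place of replicate 1, the block fit called 8 of 48 lower and 0 higher, against 2.59% and 2.02% of all loci, and the median was -1.33. With C24 X Col-0 replicate 2 omitted the fit has no block and called 0 of 48, with 46 of 48 fitted below 0 and a median of -1.55. With replicate 2 of Col-0 X C24 omitted it called 0 and the median was -0.96. With replicate 1 of that cross omitted it called 0 and the median was -2.45.

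**Figure D2:**
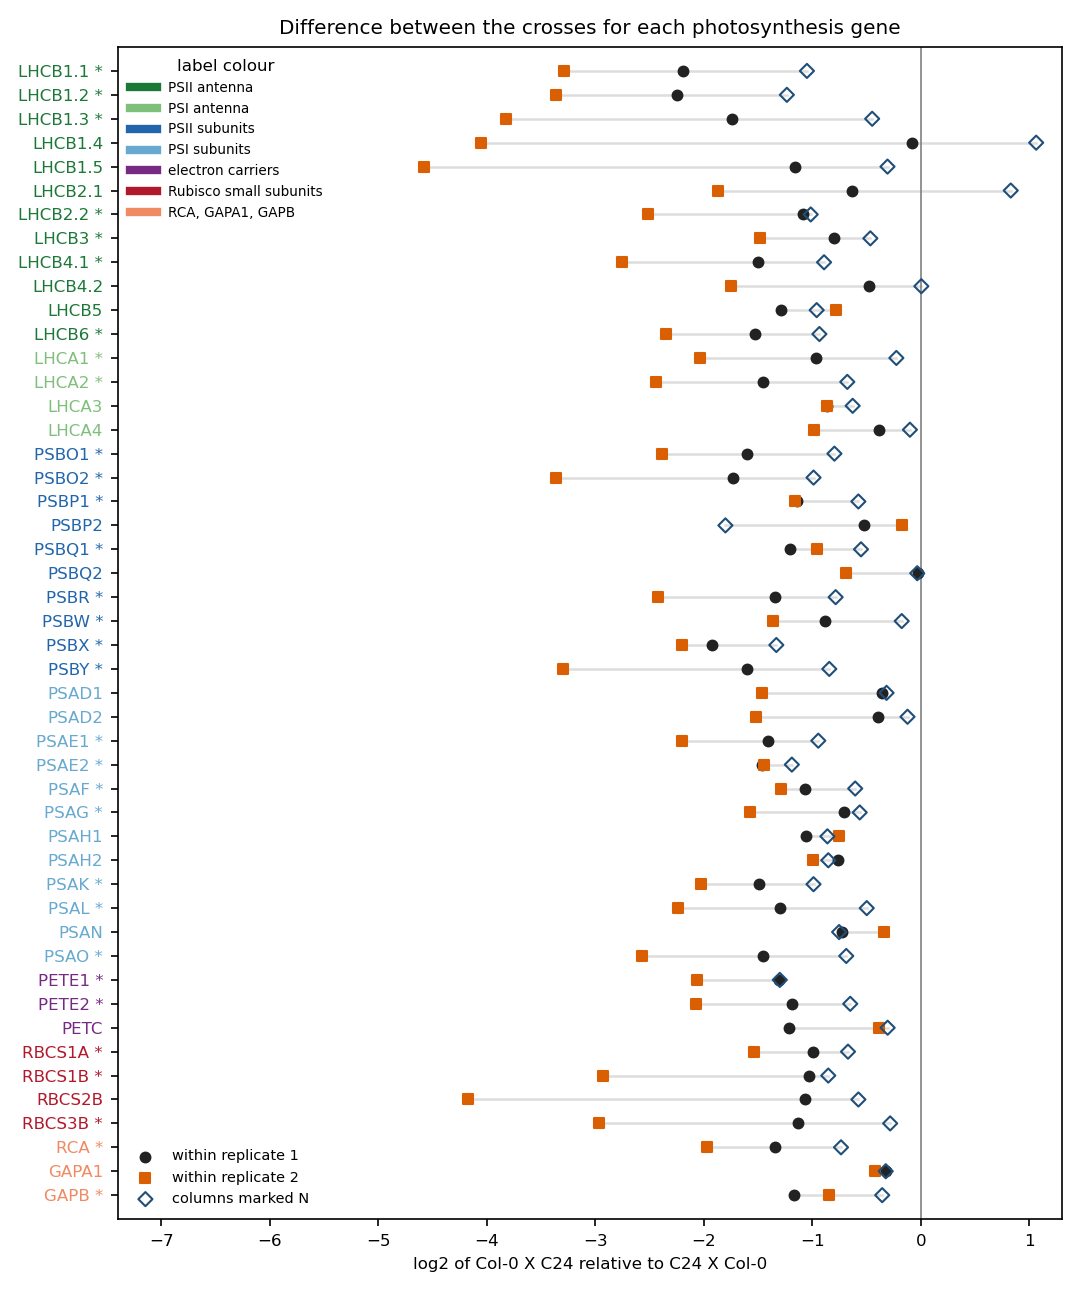
Log2 of Col-0 X C24 relative to C24 X Col-0 (horizontal axis, TMM-scaled RPM with 0.5 added) for each of the 48 genes (rows), within replicate 1 (black circles), within replicate 2 (orange squares) and in the columns marked N relative to the median of all loci (open diamonds). Asterisks mark the 31 genes with an adjusted p under 0.05 in edgeR with the replicate block. All circles and squares lie below 0, and 3 diamonds, all of the photosystem II antenna, do not.

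Among the 12 photosystem II antenna genes, 7 passed with the block as lower in Col-0 X C24 and 0 as higher, and the class median was -1.93 on the log2 scale. Only LHCB1.1 and LHCB1.2, 2 of the 12, passed once the GC correction was added, and the class median was -1.06. Values per library are TMM-scaled RPM, given for replicates 1 and 2, and fold changes are log2 values from edgeR with the block. The ± value beside a fold change is an approximate SE. It is the size of the fold change over the square root of the test's F statistic. LHCB1.3 (AT1G29930, chr1:10477885-10479114), a single-exon gene for a major antenna protein, had 274 and 12.6 RPM in Col-0 X C24, against 916 and 185 in C24 X Col-0. The crosses overlapped for LHCB1.3, since replicate 1 of Col-0 X C24 lay above replicate 2 of C24 X Col-0. Its log2 fold change was -2.74 ± 0.52 with an edgeR adjusted p of 0.0192, and -1.79 with an adjusted p of 0.052 once the GC correction was added. Its neighbours on chromosome 1 encode the same protein type. LHCB1.2 (AT1G29910) had 30.4 and 8.31 RPM in Col-0 X C24, against 146 and 89.9 in C24 X Col-0. LHCB1.1 (AT1G29920) had 67.7 and 11.9 RPM in Col-0 X C24, against 312 and 121 in C24 X Col-0. Both were lower in Col-0 X C24 without overlap, by log2 fold changes of -2.80 ± 0.35 for LHCB1.2 and -2.73 ± 0.34 for LHCB1.1. Their edgeR adjusted p values were 0.000506 for LHCB1.2 and 0.000554 for LHCB1.1.

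The minor antenna proteins link the major antenna to the photosystem II core. LHCB6 (AT1G15820) had 96.9 and 11.7 RPM in Col-0 X C24, against 280 and 61.4 in C24 X Col-0, and its log2 fold change was -1.92 ± 0.31 (edgeR adjusted p = 0.00273). With the GC correction it was -0.69 ± 0.30 and did not pass (edgeR adjusted p = 0.235). Its libraries overlapped between the crosses, as replicate 1 of Col-0 X C24 exceeded replicate 2 of C24 X Col-0. LHCB4.1 (AT5G01530) had 90.0 and 13.7 RPM in Col-0 X C24, against 255 and 95.5 in C24 X Col-0, without overlap, and its log2 fold change was -2.11 ± 0.35 (edgeR adjusted p = 0.00393). Corrected for GC content, LHCB4.1 was at -1.10 and did not pass (edgeR adjusted p = 0.0815). Its paralog LHCB4.2 (AT3G08940) had 33.5 and 7.86 RPM in Col-0 X C24, against 46.7 and 27.6 in C24 X Col-0. For LHCB4.2 the log2 fold change of -1.08 ± 0.36 did not pass (edgeR adjusted p = 0.102), and the crosses overlapped. LHCB2.2 and LHCB3, which encode the other major antenna types, passed as lower with the block, but not with the GC correction (edgeR adjusted p = 0.123 and 0.117). LHCB1.4, LHCB1.5, LHCB2.1 and LHCB5 did not pass, with log2 fold changes of -1.93, -2.72, -1.22 and -1.04.

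In replicate 2, LHCB1.4 had 0 reads in Col-0 X C24, against 48 in C24 X Col-0. With 3 reads allowed in the library at 0, its level in Col-0 X C24 was at least 11.6-fold lower within replicate 2. In replicate 1 it had 32 reads in Col-0 X C24, against 22 in C24 X Col-0, which is 4.91 and 5.22 RPM after TMM scaling, so the difference rests on 1 library. The LHCB1 genes are near-copies, and between 3.23% and 9.23% of the 80-base windows of each transcript are identical in another member of the group. For LHCB2.1 and LHCB2.2 the shares are 14.2% and 17.8%. The study's methods give reads of 80 bases and the labels 100, and with windows of 100 bases the shares were 1.51% to 4.44% for the LHCB1 genes, 9.87% for LHCB2.1 and 12.4% for LHCB2.2. How reads that match several loci were counted is not given in the sources used here, so the split within these groups is uncertain.

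Of the 4 photosystem I antenna genes, LHCA1 and LHCA2 passed with the block as lower and LHCA3 and LHCA4 did not, and with the GC correction LHCA2 alone passed. LHCA2 (AT3G61470) had 61.4 and 16.4 RPM in Col-0 X C24, against 169 and 91.2 in C24 X Col-0, and its log2 fold change was -1.94 ± 0.32 (edgeR adjusted p = 0.00323). Its libraries did not overlap between the crosses, and 2.33% of its 80-base windows are shared with AT5G28450, against 0% of its windows of 100 bases. LHCA4 (AT3G47470), the gene of this class with the most reads, had 97.5 and 83.8 RPM in Col-0 X C24, against 128 and 167 in C24 X Col-0. Both libraries of Col-0 X C24 lay below both of C24 X Col-0 for LHCA4 too, but its log2 fold change of -0.69 ± 0.29 did not pass (edgeR adjusted p = 0.196).

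Photosystem II subunits passed as lower in 8 of 10 cases, with a class median of -1.52 on the log2 scale, and in 5 of 10 with the GC correction, with a median of -1.24. The calls of PSBO1, PSBP1 and PSBQ1 were lost with the correction (edgeR adjusted p = 0.0581, 0.132 and 0.0776). PSBO1 (AT5G66570, chr5:26568572-26570461) encodes the main protein that stabilises the water-splitting manganese cluster. It had 160 and 43.1 RPM in Col-0 X C24, against 489 and 228 in C24 X Col-0, without overlap, and its log2 fold change was -2.0 ± 0.33 (edgeR adjusted p = 0.00291). PSBX (AT2G06520), a single-exon gene for a small membrane subunit, had 83.1 and 24 RPM in Col-0 X C24, against 316 and 112 in C24 X Col-0. Its libraries did not overlap either, and its log2 fold change was -2.07 ± 0.29 (edgeR adjusted p = 0.00101). PSBO2, PSBP1, PSBQ1, PSBR, PSBW and PSBY also passed, with log2 fold changes between -2.44 for PSBO2 and -1.10 for PSBQ1.

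The paralogs of the lumenal proteins did not all pass. PSBP1 (AT1G06680), an extrinsic protein of the water-splitting complex, had 101 and 75.0 RPM in Col-0 X C24, against 225 and 169 in C24 X Col-0. Its log2 fold change was -1.16 ± 0.28 (edgeR adjusted p = 0.0273), without overlap between the crosses. PSBP2 (AT2G30790) had 13 and 10 reads in Col-0 X C24, against 13 and 16 in C24 X Col-0, and a difference was not detectable at this depth (log2 fold change -0.42 ± 0.96, edgeR adjusted p = 0.865). PSBQ2 (AT4G05180), another extrinsic protein, had 41.2 and 50.1 RPM in Col-0 X C24, against 42.0 and 80.8 in C24 X Col-0. Its crosses overlapped, and its log2 fold change was the smallest of the 48 at -0.36 ± 0.29 (edgeR adjusted p = 0.547).

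Of the 12 photosystem I subunits, 7 passed as lower, with a class median of -1.16 on the log2 scale. With the GC correction 5 passed and the median was -1.03, without PSAE2, PSAF and PSAG (edgeR adjusted p = 0.468, 0.0971 and 0.0709) and with PSAH2 (edgeR adjusted p = 0.0495). PSAK (AT1G30380), which lies beside the antenna in the membrane, had 58.5 and 25.1 RPM in Col-0 X C24, against 166 and 104 in C24 X Col-0 (log2 fold change -1.77 ± 0.29, edgeR adjusted p = 0.00282). PSAE1 (AT4G28750), a subunit on the stromal side, had 40.1 and 11.2 RPM in Col-0 X C24, against 107 and 53.4 in C24 X Col-0 (log2 fold change -1.80 ± 0.31, edgeR adjusted p = 0.00374). PSAO (AT1G08380) had 57.7 and 11.5 RPM in Col-0 X C24, against 159 and 70.3 in C24 X Col-0 (log2 fold change -1.99 ± 0.33, edgeR adjusted p = 0.00382). For PSAK, PSAE1 and PSAO both libraries of Col-0 X C24 lay below both of C24 X Col-0.

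PSAF (AT1G31330), which takes part in docking plastocyanin, had the most reads among the photosystem I subunits. It had 87.2 and 60.6 RPM in Col-0 X C24, against 183 and 149 in C24 X Col-0, without overlap (log2 fold change -1.18 ± 0.28, edgeR adjusted p = 0.0243). PSAE2, PSAG and PSAL passed as well. PSAD1 (AT4G02770), which takes part in docking ferredoxin, had 74.6 and 55.2 RPM in Col-0 X C24, against 96.1 and 154 in C24 X Col-0 (log2 fold change -0.92 ± 0.32, edgeR adjusted p = 0.121). Its paralog PSAD2 (AT1G03130) had 31.3 and 22.5 RPM in Col-0 X C24, against 41.3 and 65.3 in C24 X Col-0 (log2 fold change -0.96 ± 0.33, edgeR adjusted p = 0.111). Neither passed, although their libraries did not overlap between the crosses. PSAN (AT5G64040), a lumenal subunit, had 47.0 and 105 RPM in Col-0 X C24, against 78.0 and 132 in C24 X Col-0, with overlap (log2 fold change -0.53 ± 0.28, edgeR adjusted p = 0.311). PSAH1 and PSAH2 did not pass, at log2 fold changes of -0.93 and -0.89.

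Both plastocyanin genes passed as lower, with and without the GC correction, and the Rieske gene PETC did not. PETE2 (AT1G20340), the main plastocyanin gene in these seeds, had 76.0 and 24 RPM in Col-0 X C24, against 173 and 103 in C24 X Col-0. Its libraries did not overlap, and its log2 fold change was -1.63 ± 0.31 (edgeR adjusted p = 0.0071). PETE1 had a log2 fold change of -1.69 ± 0.36 and PETC one of -0.81 ± 0.30, with edgeR adjusted p values of 0.0138 and 0.143.

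The Rubisco small subunit is encoded by RBCS1A (AT1G67090, chr1:25048158-25049667) and by a cluster of RBCS3B, RBCS2B and RBCS1B on chromosome 5 between 15376988 and 15385320. Coding sequences of the cluster are 96.7% to 97.25% identical to each other. The stretch shown is 80 bases of coding sequence, positions 361 to 440, that the 3 cluster genes share without a mismatch, beside the same stretch of RBCS1A. It is shown because a read of this length could not be assigned within the cluster but could be told from RBCS1A. Capitals mark the 4 positions at which RBCS1A differs. The stretch lies at chr1:25048568-25048647 for RBCS1A, chr5:15384456-15384535 for RBCS1B, chr5:15381309-15381388 for RBCS2B and chr5:15377607-15377686 for RBCS3B, all on the minus strand.
RBCS1A: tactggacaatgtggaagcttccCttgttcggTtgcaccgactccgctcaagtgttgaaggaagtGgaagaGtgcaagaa
RBCS1B: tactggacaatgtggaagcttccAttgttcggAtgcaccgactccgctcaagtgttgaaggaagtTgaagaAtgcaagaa
RBCS2B: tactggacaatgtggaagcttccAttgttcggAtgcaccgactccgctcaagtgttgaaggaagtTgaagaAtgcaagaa
RBCS3B: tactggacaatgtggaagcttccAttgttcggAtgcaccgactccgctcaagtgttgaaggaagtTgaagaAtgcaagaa
Over whole transcripts, 8.49% of the 80-base windows of RBCS1B, 3.27% of RBCS2B and 14.6% of RBCS3B are shared within the cluster, and 0% of those of RBCS1A. At 100 bases the shares were 7.46%, 0% and 12.1%, so values of the cluster genes are uncertain in their split.

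RBCS1A had 488 and 287 RPM in Col-0 X C24, against 975 and 834 in C24 X Col-0. Both libraries of Col-0 X C24 were lower, and its log2 fold change was -1.27 ± 0.34 (edgeR adjusted p = 0.0448), which did not pass with the GC correction (edgeR adjusted p = 0.0972). RBCS3B had 72.8 and 29.0 RPM in Col-0 X C24, against 160 and 230 in C24 X Col-0 (log2 fold change -2.04 ± 0.45, edgeR adjusted p = 0.0319). RBCS1B had 10.8 and 5.39 RPM in Col-0 X C24, against 22.5 and 44.5 in C24 X Col-0 (log2 fold change -1.99 ± 0.47, edgeR adjusted p = 0.0319). RBCS2B had 10.1 and 3.82 RPM in Col-0 X C24, against 21.8 and 77.4 in C24 X Col-0, and did not pass (log2 fold change -2.58 ± 0.98, edgeR adjusted p = 0.301). All 3 cluster genes had their lowest value in Col-0 X C24 replicate 2 and their highest in C24 X Col-0 replicate 2, without overlap between the crosses.

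Rubisco activase, RCA (AT2G39730, chr2:16570746-16573692, 7 exons), had 99.7 and 62.6 RPM in Col-0 X C24, against 254 and 248 in C24 X Col-0. The values of C24 X Col-0 lay close together and above both of Col-0 X C24, and the log2 fold change was -1.67 ± 0.31 (edgeR adjusted p = 0.00578). With the GC correction it was -1.06 ± 0.32 and did not pass (edgeR adjusted p = 0.0803). Plastid glyceraldehyde-3-phosphate dehydrogenase consists of A and B subunits. GAPB had a log2 fold change of -1.02 ± 0.28 (edgeR adjusted p = 0.0476), which did not pass with the GC correction either (edgeR adjusted p = 0.128). GAPA1 (AT3G26650) had 58.8 and 113 RPM in Col-0 X C24, against 73.5 and 152 in C24 X Col-0, with overlap, and did not pass (log2 fold change -0.38 ± 0.27, edgeR adjusted p = 0.50).

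The share of a paralog in the reads of its family does not depend on the scaling between libraries. LHCB4.1 held 72.9% and 63.5% of the summed reads of LHCB4.1 and LHCB4.2 in the libraries of Col-0 X C24 (replicates 1 and 2), against 84.5% and 77.6% in C24 X Col-0. In the columns marked N the share of LHCB4.1 was 72.1% in Col-0 X C24, against 82.9% in C24 X Col-0. The mean was 68.2% ± 6.6 in Col-0 X C24, against 81.0% ± 4.9 in C24 X Col-0 (SD, n = 2 each), and the libraries did not overlap with or without the columns marked N. The 95% Wilson intervals, which cover counting error only, ran from 69.7% to 75.8% and from 53.6% to 72.5% in Col-0 X C24, against 82.4% to 86.4% and 74.5% to 80.4% in C24 X Col-0. The interval of Col-0 X C24 replicate 1 overlaps that of replicate 2 of the other cross. A further gene of the family, LHCB4.3 (AT2G40100), is not among the 48, and it had 100 and 23 reads in Col-0 X C24, against 229 and 115 in C24 X Col-0. With its reads added to the sum, LHCB4.1 held 64.8% and 51.3% in Col-0 X C24, against 71.6% and 67.4% in C24 X Col-0, and 62.2% against 67.5% in the columns marked N. The means were then 58.0% ± 9.6 in Col-0 X C24, against 69.5% ± 3.0 in C24 X Col-0 (SD, n = 2 each), again without overlap of the libraries. Of the 11 families with 2 or more members in the list, counted over those members, 4 had shares without overlap in the 4 libraries. Order alone separates 2 against 2 libraries in a share of 0.333 of cases. LHCB4 was the only family whose shares also did not overlap once the columns marked N were added. Those columns belong to replicate 1 and are not further replicates, and no test was run on these counts. The transcripts of LHCB4.1 and LHCB4.2 share no 80-base window.

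RBCS1A held 83.9% and 88.3% of the RBCS reads in Col-0 X C24, against 82.7% and 70.3% in C24 X Col-0. The means were 86.1% ± 3.1 in Col-0 X C24, against 76.5% ± 8.7 in C24 X Col-0 (SD, n = 2 each), but in the columns marked N the order was the opposite, at 76.7% in Col-0 X C24, against 79.9% in C24 X Col-0. PSBP2 held 2.42% ± 0.69 of the PSBP reads in Col-0 X C24, against 1.44% ± 0.12 in C24 X Col-0, and PSAD2 held 29.2% ± 0.47 of the PSAD reads in Col-0 X C24, against 29.9% ± 0.18 in C24 X Col-0 (SD, n = 2 each). For PSBP2 and PSAD2, too, the columns marked N gave the opposite order. LHCB1.3 held 41.8% ± 13.3 of the LHCB1 reads in Col-0 X C24, against 42.9% ± 14.0 in C24 X Col-0 (SD, n = 2 each), with overlap.

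**Figure D3:**
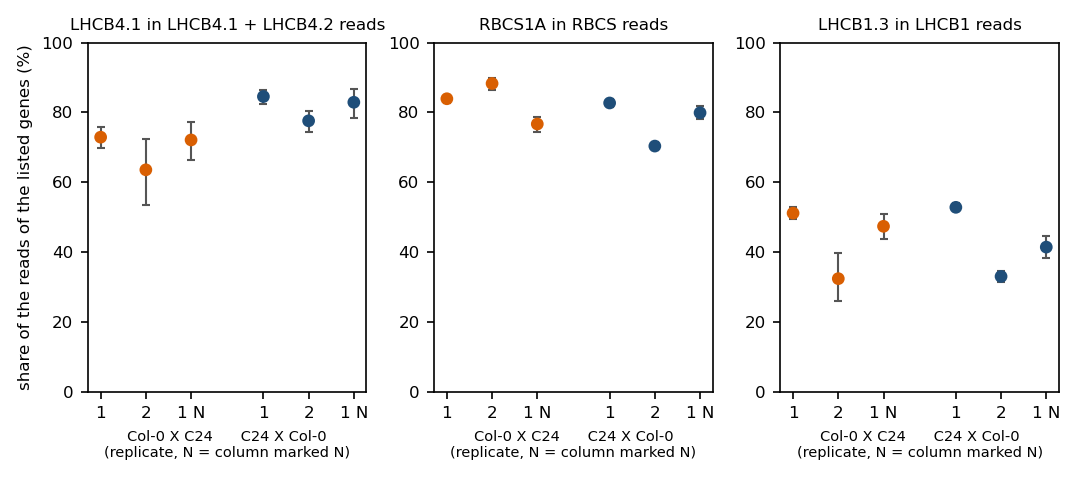
Share of LHCB4.1, RBCS1A and LHCB1.3 in the summed reads of the listed genes of their families (vertical axis, percent; LHCB4.1 with LHCB4.2) in each library and in the columns marked N, with 95% Wilson intervals. LHCB4.1 is lower in all 3 columns of Col-0 X C24 than in all 3 of C24 X Col-0, while the shares of RBCS1A and LHCB1.3 overlap.

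Replicate 2 was set against replicate 1 with the cross as a covariate, which shows how these genes fared between the nuclease-treated and the untreated libraries. In replicate 2, 20 of 48 genes passed as lower and 2 as higher in edgeR, against 6.68% of all loci lower and 3.23% higher. The median log2 fold change (replicate 2 over replicate 1) was -0.86, against 0.07 over all loci tested. This rests on single libraries, since it was 0.05 with Col-0 X C24 replicate 2 omitted and 0.18 with C24 X Col-0 replicate 1 omitted, and over the 4 omissions 0 to 1 genes were called lower. Within Col-0 X C24 the median was -1.31 and within C24 X Col-0 it was -0.54. Lower in replicate 2 of both crosses were 32 genes and higher in both were 3. The photosystem II antenna held 7 of the 20 genes that were lower, photosystem II subunits 5 and photosystem I subunits 4.

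LHCB6 had 11.7 RPM in replicate 2, against 96.9 in replicate 1, in Col-0 X C24. In C24 X Col-0 it had 61.4 RPM in replicate 2, against 280 in replicate 1. Its log2 fold change was -2.59 ± 0.32 (edgeR adjusted p = 0.000416). LHCB1.3 had 12.6 RPM in replicate 2, against 274 in replicate 1, in Col-0 X C24. In C24 X Col-0 it had 185 RPM in replicate 2, against 916 in replicate 1. Its log2 fold change was -3.31 ± 0.53 (edgeR adjusted p = 0.00674), so this antenna gene was lower in replicate 2 by more than any other of the 48. PSBX, LHCB4.1 and LHCB1.1 had log2 fold changes of -1.64 ± 0.29, -2.02 ± 0.35 and -1.89 ± 0.34. Higher in replicate 2 were GAPA1, with a log2 fold change of 1.00 ± 0.27 (edgeR adjusted p = 0.0364), and PSAN, with 0.96 ± 0.28 (edgeR adjusted p = 0.0464). GAPA1 had 113 RPM in replicate 2, against 58.8 in replicate 1, in Col-0 X C24. In C24 X Col-0 it had 152 RPM in replicate 2, against 73.5 in replicate 1. PSBQ2, RBCS2B and PSAD1 followed at 0.61 ± 0.29, 0.51 ± 0.97 and 0.13 ± 0.32 and did not pass.

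Base composition moved with this difference. Among the 16 genes with the lowest GC content of the transcript (38.8% to 42.7%), 2 passed as lower and 2 as higher in replicate 2. Among the 16 in the middle, 6 passed as lower and 0 as higher, and among the 16 with the highest GC content (44.9% to 51.4%), 12 as lower and 0 as higher. The median log2 fold changes of the 3 groups were 0.06, -0.42 and -1.46, from low to high GC. Over the 48 genes the Spearman correlation between GC content and the log2 fold change was -0.623, and over 16704 loci it was -0.305, where all points share the same 4 libraries. With the mean level of the gene the correlation over the 48 genes was 0.051, but over 16704 loci it was -0.326. PETE2, at 38.8% GC the lowest of the 48, was nevertheless lower in replicate 2, by a log2 fold change of -1.19 ± 0.31 (edgeR adjusted p = 0.0275). With a correction for GC content 9 of 48 passed as lower and 0 as higher, against 5.26% and 2.5% of all loci.

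Coding stretches of genes picked from the extremes of this difference are shown as an illustration and are not a test of it. The stretches are 120 bases of the 2 genes that passed as lower in replicate 2 by the largest fold change, LHCB1.3 (chr1:10478071-10478190, plus strand) and LHCB6 (chr1:5447557-5447676, minus strand), and of the genes that were higher, PSAN (chr5:25629290-25629409, minus strand) and GAPA1 (chr3:9795626-9795745, plus strand). The stretch starts at the first coding base, except in GAPA1, where it starts at coding position 139 and lies within 1 exon. Capitals mark G and C.
LHCB1.3: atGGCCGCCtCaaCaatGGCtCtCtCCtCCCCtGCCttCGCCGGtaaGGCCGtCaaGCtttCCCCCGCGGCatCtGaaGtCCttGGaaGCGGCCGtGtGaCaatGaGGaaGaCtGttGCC
LHCB6: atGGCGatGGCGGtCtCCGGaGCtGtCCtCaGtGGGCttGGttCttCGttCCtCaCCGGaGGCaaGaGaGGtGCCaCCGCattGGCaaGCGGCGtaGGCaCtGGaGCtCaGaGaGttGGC
PSAN: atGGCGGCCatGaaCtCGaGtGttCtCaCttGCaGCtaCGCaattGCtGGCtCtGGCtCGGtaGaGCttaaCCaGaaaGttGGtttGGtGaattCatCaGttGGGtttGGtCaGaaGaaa
GAPA1: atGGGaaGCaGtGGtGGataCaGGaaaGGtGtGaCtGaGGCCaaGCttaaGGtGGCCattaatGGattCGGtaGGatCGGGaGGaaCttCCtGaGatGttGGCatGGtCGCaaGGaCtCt
G and C made up 60.8% of the stretch in LHCB1.3 and 62.5% in LHCB6, against 48.3% in PSAN and 51.7% in GAPA1. Over the whole transcript the contents were 47.5% in LHCB1.3, 49.0% in LHCB6, 39.1% in PSAN and 42.4% in GAPA1.

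**Figure D4:**
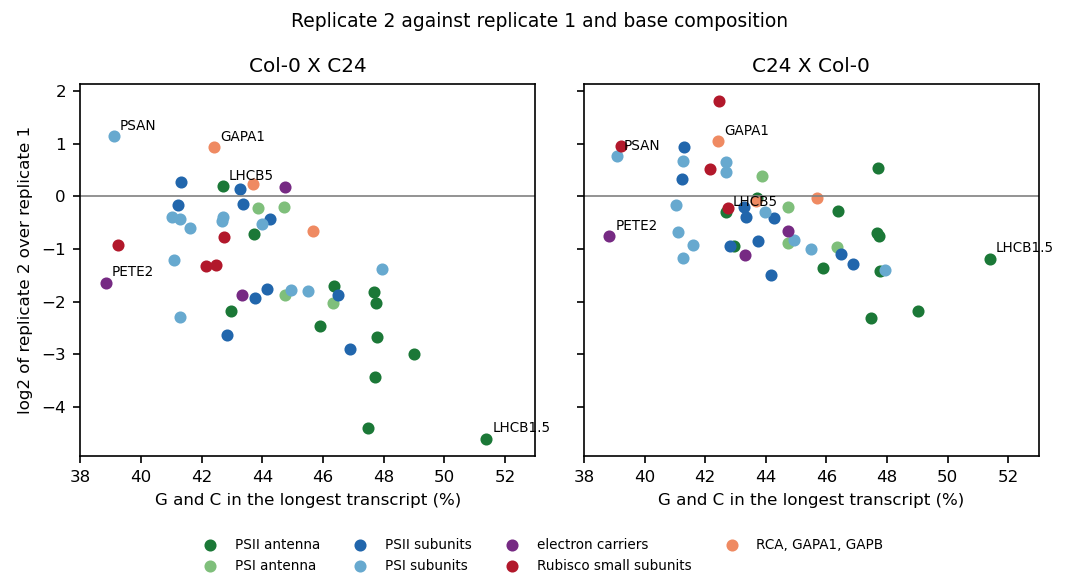
Log2 of replicate 2 over replicate 1 (vertical axis, TMM-scaled RPM with 0.5 added) against the G and C content of the longest transcript (horizontal axis, percent) for the 48 genes, in Col-0 X C24 (left) and C24 X Col-0 (right). Genes above 44.9% GC lie mostly below 0 in both crosses, GAPA1 and PSAN lie above 0 in both, and PETE2 lies below 0 at the lowest GC content.

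The same property was set beside the difference between the crosses. The Spearman correlation of GC content with the log2 fold change between the crosses with the block was -0.429 over the 48 genes and -0.274 over 16704 loci. Within replicate 1 it was -0.415 over the 48 genes and -0.317 over all loci, and within replicate 2 it was -0.394 and -0.145. In the columns marked N it was -0.0986 and -0.126. With the block, 7 of the 16 genes of lowest GC, 11 of the middle 16 and 13 of the 16 of highest GC passed as lower in Col-0 X C24. The median log2 fold changes of these 3 groups were -1.08, -1.17 and -1.93, and the part of base composition in the difference between the crosses was not tested. Promoter letters were counted against the same calls. Of the genes with a G-box core, 4 of 9 passed as lower in Col-0 X C24, and of those without it 27 of 39. For CCAATC the counts were 6 of 13 with it and 25 of 35 without it.

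Other genes of the pathway were taken from 6 lists. Of 59 loci, 52 were tested, and 14 passed with the block as lower in Col-0 X C24 and 0 as higher, against 4.42% and 2.24% of all loci, with a median log2 fold change of -0.52, against -1.56 for the 48 genes. With the GC correction 9 of the 52 passed as lower, against 3.68% of all loci, and the median was -0.39. Other antenna proteins passed as lower in 4 of 5 tested cases, among them LHCB2.4, which had 35 and 10 reads in Col-0 X C24, against 61 and 94 in C24 X Col-0 (log2 fold change -2.01 ± 0.48, edgeR adjusted p = 0.0262). Of 14 Calvin cycle genes 4 passed as lower, with log2 fold changes of -2.61 and -2.50 for the plastid aldolases FBA1 and FBA2, -2.30 for the regulator CP12-1 and -1.03 for EMB3119. FD1, FD2 and ATPD, which encode ferredoxins and a subunit of ATP synthase, passed as lower among 7 genes of electron transfer and ATP synthase. ATPC1, another subunit of ATP synthase, had a log2 fold change of 0.24 ± 0.29 (edgeR adjusted p = 0.710). GOX1, a glycolate oxidase, was the only 1 of 8 photorespiration genes to pass.

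Of the 13 chlorophyll synthesis genes tested, 2 passed as lower in Col-0 X C24 and 0 as higher, and the list median was -0.31. Those that passed were GUN4, an activator of magnesium chelatase, and PORB, a protochlorophyllide reductase, at log2 fold changes of -1.50 ± 0.34 and -1.10 ± 0.30 (edgeR adjusted p = 0.0184 and 0.0454). GUN4 had 84 and 33 reads in Col-0 X C24, against 143 and 141 in C24 X Col-0. CAO, which makes chlorophyll b, had a log2 fold change of 0.27 ± 0.40 (edgeR adjusted p = 0.776).

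Known regulators of photosynthesis genes were near the limit of detection or did not pass. Of 10 regulators, GLK1, GNC, GNL, PIF1 and PIF3 had too few reads to be tested, with at most 6 reads in any library other than replicate 2 of C24 X Col-0. In that library they had 2, 22, 17, 18 and 17 reads. GLK2, a transcription factor that activates antenna genes, had 14 and 0 reads in Col-0 X C24, against 7 and 23 in C24 X Col-0 (log2 fold change -1.62 ± 1.5, edgeR adjusted p = 0.617). HY5, a light-signalling factor, had 68 and 16 reads in Col-0 X C24, against 29 and 46 in C24 X Col-0 (log2 fold change -0.18 ± 0.55, edgeR adjusted p = 0.906). The plastid sigma factors SIG2 and SIG6 and the retrograde signalling protein GUN1 had log2 fold changes of 0.08 ± 0.33, -0.20 ± 0.34 and -0.28 ± 0.29, with edgeR adjusted p values of 0.935, 0.811 and 0.653.

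Markers of the tissues that a seed sample could hold were read in the same libraries. Their RPM values are relative to library totals, without TMM scaling, while overlap was judged on TMM-scaled values. The 6 stomatal genes, which would mark green silique wall, summed to 0.462 and 3.96 RPM in Col-0 X C24, against 0.983 and 12.0 in C24 X Col-0. In replicate 1, 5 of 6 stomatal genes were at 0 reads in each cross, so these sums rest on very few reads. In replicate 2, 4 of 6 were at 0 in Col-0 X C24 and 0 of 6 in C24 X Col-0. The 7 seed coat genes summed to 15246 and 5180 RPM in Col-0 X C24, against 26785 and 9432 in C24 X Col-0. TT4 had 11042 and 1664 RPM in Col-0 X C24, against 22050 and 6160 in C24 X Col-0. It was the largest of the 7 except in Col-0 X C24 replicate 2, where the seed coat gene BAN had 2203 RPM. The libraries of Col-0 X C24 lay lower without overlap for 2 of the 7, against 17.2% of all loci. They lay higher without overlap for 2, TTG2 and STK, against 19.6%, and overlapped for 3. With the block the seed coat gene TT4, a chalcone synthase, passed as lower in Col-0 X C24 and the ovule gene STK as higher, and the other 5 did not pass. With the GC correction 0 of 7 passed, with edgeR adjusted p values of 0.429 for TT4 and 0.0783 for STK. The 6 endosperm genes summed to 21.4 and 47.5 RPM in Col-0 X C24, against 24.4 and 80.6 in C24 X Col-0. With the block 0 of 5 tested passed, at a median log2 fold change of -1.28. With the GC correction 1 of 5, PHE1, passed as lower (edgeR adjusted p = 0.0352), against 3.68% of all loci. The libraries of Col-0 X C24 lay lower without overlap for 3 of the 5, against 17.2% of all loci, and higher for 0, against 19.6%. The 4 embryo and suspensor genes summed to 3.54 and 37.6 RPM in Col-0 X C24, against 3.61 and 25.4 in C24 X Col-0, and 0 of 3 tested passed. The part of tissue composition in the difference of the 48 genes was not tested.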

How the data were processed

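Seeds of 2 reciprocal crosses were measured by poly-A mRNA-seq, 2 libraries per cross. Per the labels and the study's methods, quality-trimmed reads were mapped by the authors to the TAIR10 cDNA set with BWA and SAMtools 0.1.7, and raw counts per locus were deposited in 6 columns. Here counts, totals of 3538335 to 6498145 per library, were tested with edgeR 4.0.16 (quasi-likelihood, robust, TMM, Benjamini-Hochberg over 16779 loci with at least 10 counts in at least 2 libraries). DESeq2 1.42.0 was an alternative. The replicate number pairs the libraries through the nuclease treatment stated in the methods. The difference between replicates correlated at 0.553 between the crosses over 16779 loci, and the block took the common dispersion to 0.0733, against 0.209 without it. The fit with the block, like that with the cross as a covariate, leaves 1 residual degree of freedom. Its p-values measure only the spread between these libraries. The GC correction removed a lowess trend per library (span 0.3). Genes, transcripts and sequences are RefSeq TAIR10.1, matched by locus for 97.7% of loci. Wilson intervals and the floor of 3 reads for a count of 0 cover counting error only. Members and lists were chosen with earlier results of these data known. Full values were given for the genes with the most reads per class, the lowest p in each comparison and families whose shares did not overlap. The 5 amplicon libraries were not analysed here.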

Additional observations from a re-analysis of the deposited data

Results flagged for a closer look

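In 4 genes the change in replicate 2 relative to replicate 1 had opposite signs in the 2 crosses, by at least 0.5 on the log2 scale in each. LHCB1.4 was at -3.44 in Col-0 X C24, against 0.54 in C24 X Col-0, where the first value rests on a library with 0 reads and is at or below -2.87 if 3 reads are allowed. RBCS1B was at -0.93 in Col-0 X C24, against 0.97 in C24 X Col-0, RBCS2B at -1.30 in Col-0 X C24, against 1.80 in C24 X Col-0, and RBCS3B at -1.31 in Col-0 X C24, against 0.52 in C24 X Col-0. The 3 RBCS genes lie side by side and share identical stretches of sequence. How reads that match several loci were counted is not given, so they cannot be taken as 3 separate observations. RBCS1A, which shares no window with them, was at -0.76 in Col-0 X C24, against -0.23 in C24 X Col-0. With 1 library per cross and replicate number the difference between the crosses was not tested.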

How the results depend on the processing

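Without the replicate block edgeR called 0 of 48 genes between the crosses, DESeq2 without the block called 3, and edgeR with no count filter called 9. With the replicate block edgeR called 31, DESeq2 31, edgeR without organelle loci 31, with at least 10 counts in all 4 libraries 42 of 47, with the GC correction 17 and with the columns marked N 8 (the last 4, and other settings with GC correction or the N columns, the sum with LHCB4.3 and the windows of 100 bases, were chosen after seeing the data). All were lower in Col-0 X C24. Calls over all loci moved as well. Without the block and with no count filter, 386 of 29809 loci were called lower. With the block 742 of 16779 were called lower, and with at least 10 counts in all 4 libraries 1059 of 13781. Leaving out 1 library gave 0 calls and medians from -2.45 to -0.96. The summed reads had a log2 ratio of -1.06, which was -1.40 with TMM scaling and -1.42 to -0.78 without 1 library. Between replicate numbers, 20 genes were lower and 2 higher. Without the cross term both counts were 0, with library totals alone both were 1, with the GC correction they were 9 and 0, with DESeq2 none were higher (0), and without 1 library they were 0 to 1 lower and 0 higher. The median of -0.86 became 0.05 with Col-0 X C24 replicate 2 omitted and 0.18 with C24 X Col-0 replicate 1 omitted, and lay between -2.10 and 0.18 over the 4 omissions. Leaving out 1 library took PSAD1 to between -0.63 and 0.86 and RBCS2B to between -2.05 and 2.30, each lowest with C24 X Col-0 replicate 2 omitted, and PSAD1 turned to -0.000435 with the GC correction. The cause was not tested. Library totals alone moved the median of all loci to 0.29 between the crosses and 0.59 between replicates, and the members' medians relative to it were -1.40 and -0.92. Of the other single values, 464 kept their direction and side of the threshold, 102 newly passed, 46 no longer passed and 7 moved. Low counts limit LHCB1.4 and PSBP2, and with 1 treated library per cross the treatment has no replicate within a cross.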
